A study of Mus musculus with 24 samples.

Results

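The data are liver expression profiles of WSB/EiJ mice, an inbred strain derived from wild-caught mice, after a diet that withholds methyl donors. The 8 WSB/EiJ samples of the 24 in the series were taken by their labels: 4 livers from males on the choline- and folate-deficient diet and 4 from males on the matched control diet. The other 16 are A/J and C3H/HeJ livers on the same diets, 8 per strain, and appear only where the diet effect of WSB/EiJ is set against theirs. All mice were 20 weeks old. The deficient diet, which was iron-supplemented and made from L-amino acids, held 0.17% methionine and no choline or folic acid, and was fed for 12 weeks from 8 weeks of age. The control diet was the same food with folic acid added at 2 mg/kg, choline bitartrate at 0.3% and methionine at 0.4%, so both groups ate an amino acid-defined, iron-supplemented food. Each sample was hybridised to a 1-colour Agilent array of 60-base probes. Whether the 4 arrays of a group come from 4 animals is not stated in the labels, so the p-values describe only how these samples vary. The hour of collection is not given in the sources used here.

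Choline, folate and methionine feed the methyl group supply of the liver. Methionine becomes S-adenosylmethionine, the methyl donor for DNA, for many small molecules and for the synthesis of phosphatidylcholine, and folate and betaine, which is made from choline, return homocysteine to methionine. Phosphatidylcholine is needed to coat the lipoproteins that carry triglyceride out of hepatocytes, and diets that lack choline are known to cause fatty liver, and over time inflammation, scarring and tumours, in rodents.

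The 2 diets gave clearly separate profiles. The leading principal component over the tested genes held 89% of the variance and had the deficient arrays at -97.6 to -64.4 and the control arrays at 84.8 to 90.4. Deficient replicate 3 lay nearest to the controls, at -64.4, against -97.6 to -89 for the other deficient arrays, and it is ringed in the plots of single genes. Correlations within a diet were 0.984 to 0.9939, against at most 0.9328 between diets. Between 47.05% and 55.46% of spots on a WSB/EiJ array were well above background and none was saturated. Signals are given in arbitrary units after each array was scaled to its 75th percentile. Summed signals of hepatocyte markers were 593600 to 753200 units in deficient livers and 1282000 to 1392000 units in controls. This sum and those of other cell types below were taken with the 75th percentile only. Their differences between diets, above all the small ones, may therefore depend on the scaling. The scaling bears on the direction of small changes: the spike-in probes, which report RNA added in a fixed amount, lay 1.321 to 1.574 log2 units above the 75th percentile in deficient livers and 2.194 to 2.385 in control livers. The median gene therefore changed by -0.32 on the log2 scale with the 75th percentile, by -0.16 with median centring, by -0.02 with quantile normalisation, with or without normexp background correction, and by 0.59 with spike-in scaling. Counts are accordingly given both with the 75th percentile and as the number called the same way under all 5 scalings.

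In all, 11585 of 15042 genes tested differed between the diets at an adjusted p under 0.05 (limma, Benjamini-Hochberg), which is a background of 77% of genes called. Of these, 3792 were higher on the deficient diet, 25.2% of genes tested, and 7793 were lower, 51.8%. The balance of directions moved with the scaling: 9557 genes were higher and 1315 lower with spike-in scaling, and 5100 and 5191 with quantile normalisation. Under all 5 scalings 3716 genes rose, 24.7% of those tested, and 1312 fell, 8.72%. The other 4 scalings put the median gene 0.16 to 0.91 log2 units above its value with the 75th percentile, so this requirement by its construction removes few rises and many falls, here and in the lists below. At least 2-fold changes were as frequent upward as downward, with 2455 genes higher and 2478 lower. The 4 deficient and 4 control values did not overlap for 10679 genes, 71% of those tested. For 727 genes called higher no control array was well above background, whereas only 38 genes called lower were undetected on every deficient array. With so many genes called, the size of a change and its place beside the median gene say more than the call. In bulk liver, fewer cells of a type and less RNA per cell cannot be told apart.

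**Figure D1:**
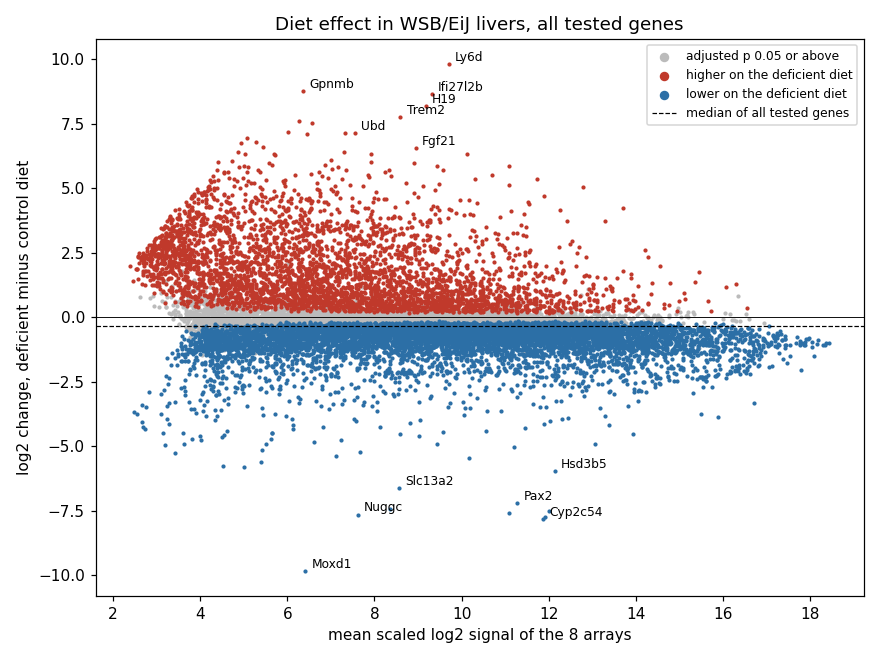
Change of each of the 15042 tested genes (deficient minus control diet, log2, vertical axis) against its mean scaled log2 signal over the 8 WSB/EiJ arrays (horizontal axis), coloured by call. Most blue points lie close below 0 around the dashed median of all genes, and the points reach from -9.81 for Moxd1, detected on 1 deficient array, up to 9.80 for Ly6d.

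The largest measured rise was that of Ly6d, which encodes a small membrane-anchored surface protein of the Ly6 family. Ly6d had 34400, 19870, 21680 and 26300 units in the deficient livers, against 33.5, 19, 42.8 and 22.9 units in the controls, a rise of 9.80 ± 0.28 on the log2 scale (SE, adjusted p = 8.8e-08), or 889-fold. All 4 deficient livers stood far above all 4 controls. Ifi27l2b, of an interferon-inducible family, rose by 8.62 ± 0.23 with 11470 to 13700 units in deficient livers and 20.4 to 47.5 units in controls. H19, the imprinted noncoding RNA that the fetal liver makes and the adult liver silences, had 15290, 10590, 9665 and 5906 units in deficient livers and 26.7, 34.2, 23.1 and 62.6 units in controls, a rise of 8.18 ± 0.37. The groups were far apart for both genes. Igf2, the imprinted neighbour of H19, did not pass the background filter and was not tested. Trem2, a lipid-sensing receptor of macrophages, came next at 6257, 6193, 4480 and 6049 units, against 34.9, 23.2, 21.3 and 27.8 units, a rise of 7.76 ± 0.18.

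The other large rises were of mixed function. Ubd, which encodes the ubiquitin-like modifier FAT10 and was detected on 3 of 4 control arrays, rose by 7.14 ± 0.44, and Fgf21, a hormone secreted by the stressed or fasting liver, by 6.53 ± 0.47. Timp1, an inhibitor of matrix proteases, had 1841, 1657, 805 and 1853 units in deficient livers and 19.1, 16.1, 21.1 and 13.4 units in controls, of which 3 were above background, a rise of 6.41 ± 0.28. The calcium-binding protein gene Cib3 rose by 6.33 ± 0.30, the leukocyte metalloprotease gene Adam8 by 6.32 ± 0.23, the trypsin inhibitor gene Spink1, detected on 3 control arrays, by 6.08 ± 0.30 and the DNA repair gene Rad51b by 6.0 ± 0.34. Clec7a, the macrophage receptor dectin-1, rose by 5.97 ± 0.16, Lgals3, or galectin-3, by 5.86 ± 0.12, the endotoxin co-receptor gene Cd14 by 5.84 ± 0.17 and the interferon-inducible Ifi44 by 5.72 ± 0.19. A further set had probes well above background on all 4 deficient arrays and on no control array, so that only a lower bound of the fold can be given: the mean of the deficient arrays over the mean, per control array, of the lowest signal well above background or the probe's own signal if higher. These were Gpnmb, a glycoprotein of lipid-laden macrophages, at least 159-fold higher, the beta-tubulin gene Tubb2b, at least 115-fold, the PDZ-domain gene Gipc2, at least 95.3-fold, and Itgax, the integrin CD11c, at least 89.9-fold. The macrophage elastase gene Mmp12 was at least 71.9-fold higher, the proton pump subunit gene Atp6v0d2 at least 41.1-fold, the phosphoinositide phosphatase gene Inpp5j at least 39.9-fold and the myotubularin-related gene Mtmr11 at least 38.2-fold. Each bound is that of the probe that stood for the gene. Further probes for Tubb2b and Atp6v0d2 rose by 3.92 and 4.18 on the log2 scale, less than these bounds.

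Cytochromes of the Cyp2c family led the falls. Cyp2c54 had 235, 212, 432 and 178 units in deficient livers, against 58700, 55020, 59740 and 49680 units in controls, a fall of 7.80 ± 0.25 on the log2 scale (adjusted p = 1.2e-07), or 224-fold. Cyp2c50 fell by 7.74 ± 0.29, Cyp2c38 fell by 7.57 ± 0.29 and Cyp2c37 fell by 7.44 ± 0.34. These genes are close paralogues, and their values may not be independent: the 60-base probes for Cyp2c37 and Cyp2c50 (build mm9, chromosome 19, 40086467 to 40086526 and 40188154 to 40188213, both on the plus strand) differ at 5 bases where they overlap when 1 is shifted along the other by 20, whereas the probes for Cyp2c54 and Cyp2c38 differed from each other and from these at 23 or more bases at every shift tried. Nuggc, which encodes a nuclear GTPase known from germinal centre B cells, had 11.3, 9.76, 25.9 and 13 units in deficient livers and 2038, 3843, 2520 and 2967 units in controls, a fall of 7.64 ± 0.32. Elovl3, a fatty acid elongase that male livers express, fell by 7.50 ± 0.50, to 97.0, 343, 611 and 435 units against 49520, 58190, 58250 and 55860 units.

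The other leading falls were of mixed function. Pax2, a transcription factor of kidney development, fell by 7.21 ± 0.58, and Slc13a2, a sodium-coupled dicarboxylate transporter, by 6.62 ± 0.31. Hsd3b5, a male-specific steroid dehydrogenase, fell by 5.96 ± 0.41, Susd4, a complement regulator, by 5.46 ± 0.63, and Dkk4, a secreted Wnt inhibitor, by 5.37 ± 0.43. Gm3734 fell by 5.20 ± 0.15, Inmt, an amine methyltransferase that uses S-adenosylmethionine, by 5.04 ± 0.38, the dopachrome tautomerase gene Dct by 4.92 ± 0.26 and Serpina4-ps1 by 4.89 ± 0.75. Deficient replicate 3 kept the highest level of most of these genes among the deficient livers, as with Pax2 at 678 units against 85.9 to 230 units in the other 3 and 22160 to 41520 units in controls. Every deficient liver nonetheless lay below every control for each of these genes.

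**Figure D2:**
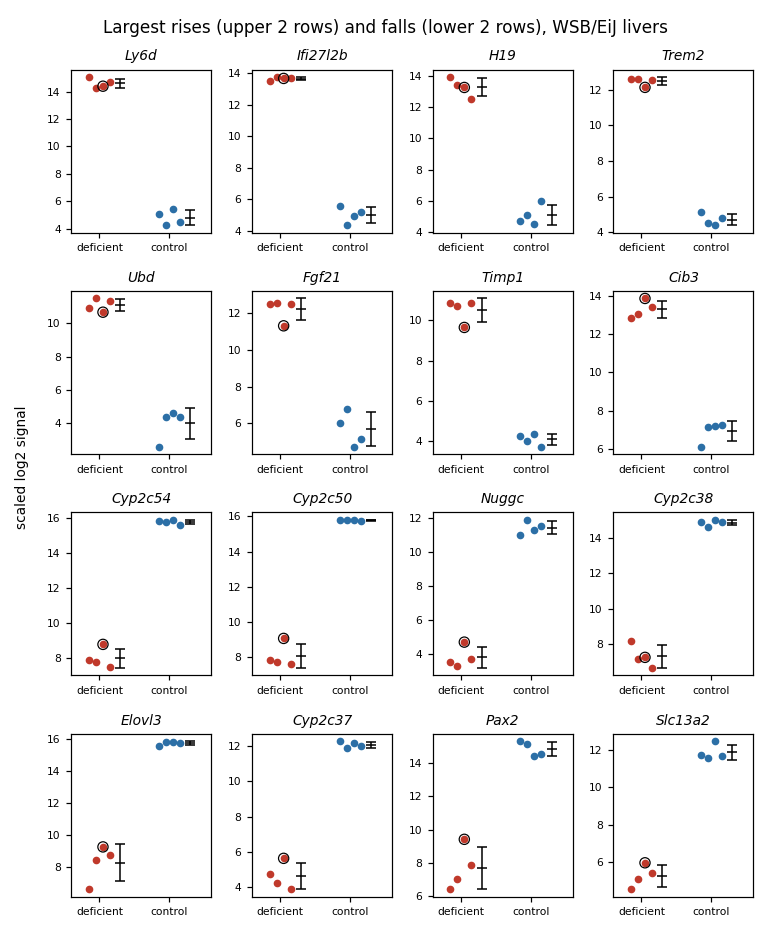
Scaled log2 signal of the 8 genes with the largest rises and the 8 with the largest falls among genes detected in both groups, 1 panel per gene, with deficient livers at the left and controls at the right (points: arrays; bar: mean ± SD, n = 4; ringed point: deficient replicate 3). The groups are apart in every panel, and the ringed point is nearest to the controls for Fgf21, Timp1, Trem2, Cyp2c54, Cyp2c50, Cyp2c37, Elovl3, Nuggc, Slc13a2, Ubd and Pax2.

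Genes of the fat droplet and of PPAR-gamma, the receptor that drives fat storage, rose in more cases than they fell: 9 of 19 tested rose and 4 fell, and 9 and 2 did so under all 5 scalings, with a median of 0.49 against -0.32 for all genes. Cidec, which fuses droplets, had 2977, 1460, 2359 and 2009 units in deficient livers and 88.7, 35.4, 38.5 and 27.6 units in controls, a rise of 5.64 ± 0.37. The fatty acid uptake gene Cd36 rose by 2.59 ± 0.26, Hilpda, an inhibitor of droplet lipolysis, by 2.05 ± 0.09, Pparg itself by 1.97 ± 0.13 and Cidea by 1.53 ± 0.31, with its probe detected on 2 of 4 control arrays. Plin2, the main coat protein of droplets, was already at 22400 to 24100 units in controls and was at 29110 to 37340 units in deficient livers, a rise of 0.49 ± 0.09. Fitm1 and Fitm2, which help droplets to form, fell by 2.27 ± 0.22 and 1.48 ± 0.08, although another probe for Fitm2 was at -0.38. Mogat1, the monoacylglycerol acyltransferase that PPAR-gamma induces in fatty livers, did not pass the test, with 13.9, 10.6, 43.8 and 33.7 units in deficient livers and 13.1, 16.2, 14.3 and 17.8 units in controls (log2 change 0.50 ± 0.43, adjusted p = 0.311).

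Of 21 genes of fatty acid and triglyceride synthesis, 3 rose and 11 fell, and 3 and 4 did so under all 5 scalings. The share that fell is near the 51.8% of all genes tested. The desaturases Scd2 and Scd1 rose by 2.08 ± 0.18 and 0.90 ± 0.25. Mlxipl, the glucose-responsive factor ChREBP, fell by 2.05 ± 0.08 and Dgat2, which makes triglyceride, by 1.47 ± 0.12. Another probe for Mlxipl was at only -0.17, so the size of its fall is uncertain. Fasn, fatty acid synthase, changed by -0.27 ± 0.17 (adjusted p = 0.171) and by 0.64 with spike-in scaling, and Srebf1, the lipogenic regulator, fell by 0.74 ± 0.25 but was at 0.16 with spike-in scaling. Of 22 genes of lipoprotein assembly and clearance, 6 rose and 14 fell, and 6 and 3 did so under all 5 scalings. The latter are 27.3% and 13.6%, not far above the 24.7% and 8.72% of all genes tested. Apoa4, an apolipoprotein of large lipoproteins, was at 50760, 28620, 48800 and 25600 units in deficient livers and 2448, 2628, 2423 and 3666 units in controls, a rise of 3.74 ± 0.26. Lpl, lipoprotein lipase, which the adult liver normally holds low, rose by 3.14 ± 0.36. Mttp, the triglyceride transfer protein that loads lipoproteins, fell by 1.02 ± 0.09, and Apob, their structural protein, by 0.91 ± 0.13. With spike-in scaling neither was called, and the change of Apob was 0.002.

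In fatty acid oxidation a few strong rises stood beside many smaller falls. Of 28 genes, 5 rose and 17 fell, and 5 and 3 did so under all 5 scalings. The shares that fell are not far above those of all genes tested, 51.8% and, under all 5 scalings, 8.72%. The omega-hydroxylase Cyp4a14 had 1294, 1215, 4045 and 917 units in deficient livers and 89.2, 25.5, 81 and 7.11 units in controls, of which 3 were above background, a rise of 5.52 ± 0.83. The pantetheinase gene Vnn1 rose by 3.65 ± 0.29 and Pdk4, which spares glucose for fat burning, by 2.67 ± 0.25. The thiolase gene Acaa2 fell by 1.30 ± 0.09. Ppara, the receptor that regulates this pathway, fell by 1.15 ± 0.10, although its fall was not called with spike-in scaling. Cyp4a14, Vnn1, Pdk4 and Fgf21, all of which rose, are known targets of PPAR-alpha.

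Most enzymes of the methyl cycle fell. Of 16 genes of the methionine cycle and transsulfuration, 1 rose and 11 fell, and 1 and 7 did so under all 5 scalings, with a median of -1.22. Gnmt, the glycine N-methyltransferase that consumes excess S-adenosylmethionine, had 44110, 42540, 67910 and 38570 units in deficient livers and 205600, 206800, 231800 and 223800 units in controls, a fall of 2.20 ± 0.17. Ahcy, which splits S-adenosylhomocysteine, fell by 2.63 ± 0.15, to 1277 to 2059 units against 8853 to 9875 units, and Nnmt, which methylates nicotinamide, by 3.64 ± 0.28. Bhmt, the betaine-dependent route from homocysteine to methionine, fell by 1.62 ± 0.21. The 2 methionine adenosyltransferase genes went apart: Mat1a, the adult liver form, fell by 1.57 ± 0.28, and Mat2a, the form of fetal and growing liver, rose by 1.5 ± 0.09, with 18110 to 23870 units in deficient livers and 7012 to 7331 units in controls. The fall of Mat1a was not called with spike-in scaling (adjusted p = 0.0513).

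In the folate cycle, 3 of 22 genes rose and 16 fell, and 3 and 8 did so under all 5 scalings. The 3 that rose belong to the mitochondrial branch, among them Mthfd1l by 3.01 ± 0.26 and Mthfd2, the dehydrogenase of embryonic and dividing cells, by 2.70 ± 0.19. That branch did not rise as a whole. The mitochondrial folate enzyme genes Shmt2 (-1.45), Sardh (-1.89) and Dmgdh (-1.4) fell, each under all 5 scalings. Mthfd2 was at 222, 217, 158 and 283 units in deficient livers and 28.1, 30.3, 41.1 and 34.3 units in controls. Aldh1l1 and Ftcd, abundant folate enzymes of hepatocytes, fell by 1.67 ± 0.14 and 1.65 ± 0.13. Of 21 genes of choline and phospholipid synthesis, 3 rose and 14 fell, and 3 and 4 did so under all 5 scalings. Chpt1, the last step of the choline route to phosphatidylcholine, fell by 2.08 ± 0.12 and the ethanolamine kinase gene Etnk2 by 2.15 ± 0.10, whereas Lpcat2, which reacylates lysophosphatidylcholine, was detected on no control array and was at least 6.94-fold higher. Pemt, the liver's choline-independent route, fell by 0.70 ± 0.09, but its sign turned with quantile normalisation (0.04) and spike-in scaling (0.21). Chka, choline kinase, changed by -0.07 ± 0.11 (adjusted p = 0.553).

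Among 13 DNA methylation enzymes and readers, 4 rose and 4 fell, and 4 and 2 did so under all 5 scalings. The latter are 30.8% and 15.4%, not far above the 24.7% and 8.72% of all genes tested. Uhrf1, which guides the maintenance methyltransferase to replicating DNA, had 624, 388, 374 and 442 units in deficient livers and 14.1, 28.6, 22.0 and 17.6 units in controls, where it was detected on 2 of 4 arrays, a rise of 4.49 ± 0.24. Dnmt1, that methyltransferase, rose by only 0.57 ± 0.13. Dnmt3b, which methylates DNA anew, changed by -0.22 ± 0.14 (adjusted p = 0.182). Tet1, an enzyme of demethylation, fell by 2.52 ± 0.15 and the reader Mbd1 by 1.78 ± 0.18.

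Drug metabolism and the sex-biased programme of male liver had the lowest medians of the lists. Of 26 drug-metabolising cytochromes and their regulators, none rose and 25 fell, 20 of them under all 5 scalings, with a median of -2.10. The remaining gene did not pass the test. Besides the Cyp2c genes above, Cyp2b10 fell by 4.60 ± 0.44, Cyp1a2 by 3.47 ± 0.12, Cyp2c29 by 2.89 ± 0.14 and Cyp2e1, an abundant ethanol-inducible form, by 1.94 ± 0.14. All 15 genes that male mouse livers express above female livers fell, 13 of them under all 5 scalings, with a median of -2.67. Moxd1 fell furthest, with 7.29, 1.79, 1.87 and 2.68 units in deficient livers, detected on 1 of the 4 arrays, and 4454, 2089, 1563 and 2918 units in controls. Ugt2b38, a glucuronosyltransferase, fell by 2.47 ± 0.12. The 8 genes with higher expression in females did not show the reverse: 1 rose and 4 fell, and 1 and 2 did so under all 5 scalings. Ntrk2 rose by 3.68 ± 0.25, whereas Cyp2b9 and Cyp2a4 fell by 3.59 ± 0.42 and 3.42 ± 0.18, with Cyp2b9 detected on 1 deficient array.

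Most bile acid genes fell. Of 21 genes of synthesis and transport, 4 rose and 17 fell, and 4 and 14 did so under all 5 scalings. Cyp7a1, whose enzyme sets the pace of bile acid production, varied widely, with 108, 181, 395 and 63.4 units in deficient livers and 854, 1133, 1265 and 418 units in controls, yet the groups did not overlap (-2.51 ± 0.57, adjusted p = 0.00365). Akr1d1 and Slc27a5, later steps of synthesis, fell by 2.35 ± 0.13 and 2.06 ± 0.12 and the uptake carrier gene Slco1a1 by 2.09 ± 0.13. Slc51b and Abcc4, which export bile acids and other anions into blood, rose by 2.29 ± 0.19 and 1.62 ± 0.14, as did the uptake carrier gene Slco1a4, by 1.19. Outside the list, Cyp39a1, an oxysterol hydroxylase of bile acid synthesis, rose by 4.14. All but 1 of 22 cholesterol synthesis genes fell, 21 in all, but only 4 fell under all 5 scalings. Tm7sf2 and Ebp, late enzymes of the pathway, fell by 2.52 ± 0.17 and 1.36 ± 0.10.

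Amino acid catabolism fell nearly throughout. Of 26 genes of the urea cycle and amino acid breakdown none rose and 25 fell, 15 of them under all 5 scalings, with a median of -1.56. Oat, ornithine aminotransferase, fell by 3.10 ± 0.14, to 1137 to 1590 units against 9473 to 12760 units. The histidase gene Hal fell by 2.47 ± 0.15. Of 16 genes of gluconeogenesis and glycogen, 2 rose and 13 fell, and 2 and 3 did so under all 5 scalings. The glycogen-targeting gene Ppp1r3c fell by 2.48 ± 0.17. Its relative Ppp1r3g was called higher (2.85 ± 1.10, adjusted p = 0.0411), but control replicate 1 alone, at 707 units, stood among the deficient livers at 173 to 897 units, the other controls being at 25.6 to 29.0 units. Without that array the rise was 4.03, and the call was lost when any of 6 other arrays was left out. Glycolytic isoforms that adult hepatocytes lack showed 6 rises and 4 falls among 13 genes, and 6 and 1 under all 5 scalings. The hexokinase genes Hk2, detected on 3 control arrays, and Hk3 rose by 3.91 ± 0.20 and 3.45 ± 0.17 and the pyruvate kinase gene Pkm by 2.52 ± 0.16.

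The secreted products of hepatocytes fell with their transcription factors, close to the amount by which the scalings differ. All 28 plasma protein genes fell, with a median of -1.06, but only 9 fell under all 5 scalings. Alb, albumin, had 236500, 225100, 281900 and 250500 units in deficient livers and 507200, 473900, 508000 and 494300 units in controls, a fall of 1.00 ± 0.09 that was not called with spike-in scaling and was at 0.06 with quantile normalisation. C8b, a complement protein, and F7, a clotting factor, fell by 2.83 ± 0.17 and 1.85 ± 0.11, beyond that shift. Of 15 hepatocyte transcription factors none rose and 14 fell, 1 of them under all 5 scalings. That gene was Hnf4a, the central regulator of hepatocyte identity, at 36800, 36570, 39400 and 34150 units in deficient livers and 94960, 92790, 82230 and 96090 units in controls, a fall of 1.32 ± 0.08. Foxa3 and Onecut2 fell by 1.06 ± 0.08 and 1.19 ± 0.09 with the 75th percentile. The acute phase list was mixed, with 4 rises and 12 falls among 21 genes, and 4 and 3 under all 5 scalings. The latter are 19% and 14.3%, against 24.7% and 8.72% of all genes tested. Lcn2, lipocalin 2, rose by 5.05 ± 0.23, to 36430 to 43890 units against 798 to 1802 units, Il1rn by 3.60 ± 0.22 with 1 control array detected, and Saa3 by 2.56 ± 0.17. Saa4 and Itih4 fell by 2.69 ± 0.24 and 1.28 ± 0.09. Saa1, the circulating serum amyloid, was at 28570 to 47950 units in deficient livers and 34610 to 180600 units in controls, and the groups overlapped (-1.28 ± 0.54, adjusted p = 0.055).

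**Figure D3:**
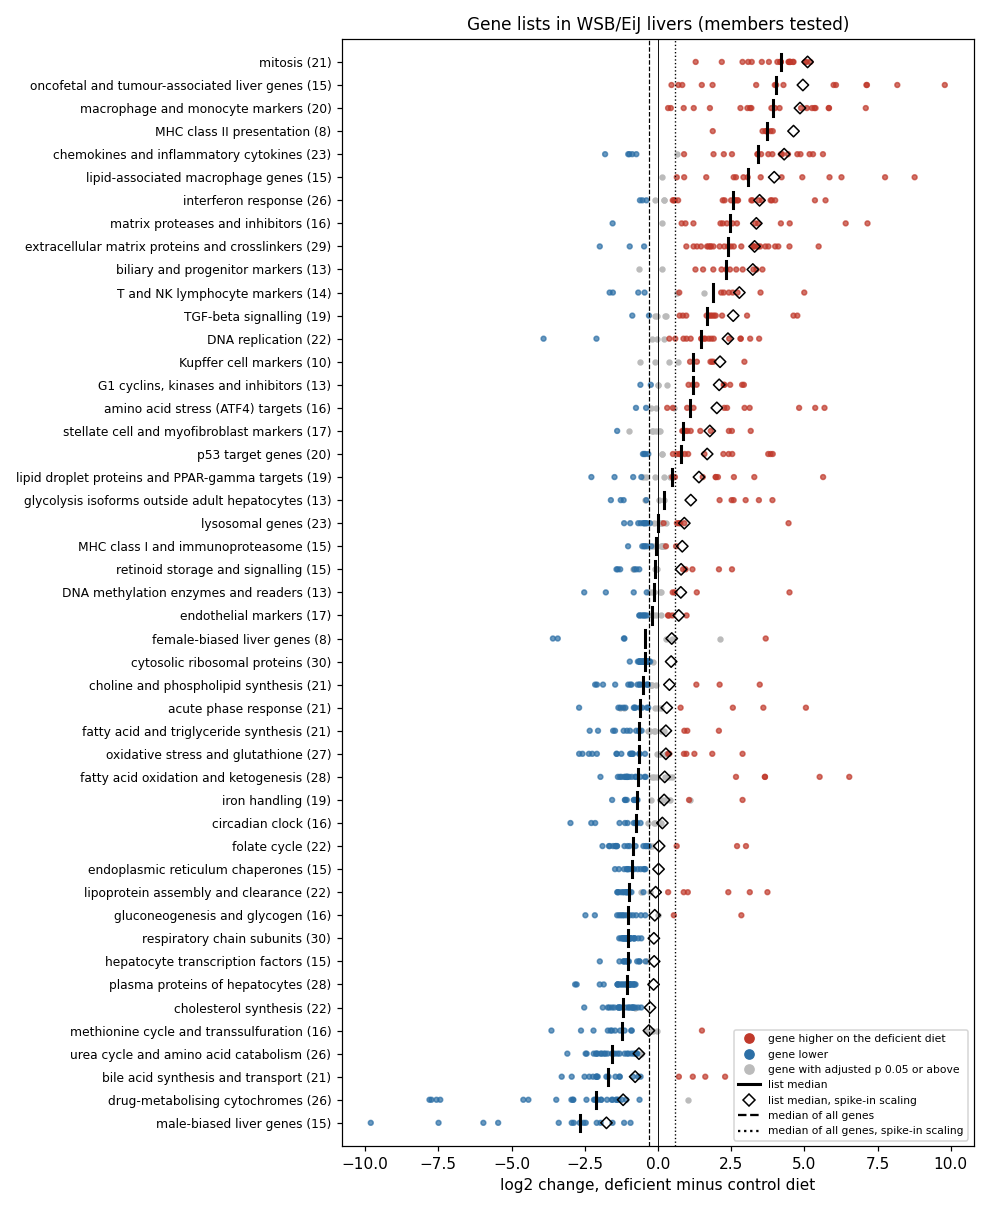
Log2 change (deficient minus control diet) of the tested members of the 47 gene lists with at least 8 tested members, 1 row per list with its number of tested members, ordered by median (points: genes, coloured by call; black bar: list median; diamond: list median with spike-in scaling; dashed and dotted lines: medians of all genes with the 75th percentile and with spike-in scaling). Mitosis, oncofetal and macrophage genes head the plot with medians of 4.20, 4.04 and 3.94, and drug-metabolising cytochromes and male-biased genes end it with medians of -2.10 and -2.67. The diamonds of the respiratory chain, plasma protein and ribosomal lists sit near or above 0 although their bars are below it. List members were chosen with earlier results of these data known.

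Matrix genes rose nearly throughout. Of 29 genes of the extracellular matrix and its crosslinking, 26 rose, all of them under all 5 scalings, and 3 fell, 1 of them under all 5, with a median of 2.39. Col1a1, a chain of the main collagen of scars, had 14570, 13190, 6343 and 12320 units in deficient livers and 312, 169, 278 and 251.8 units in controls, a rise of 5.49 ± 0.29, or 44.9-fold. Deficient replicate 3 was the lowest of the deficient livers for Col1a1 but far above every control. Col1a2 rose by 4.11 ± 0.20 and the crosslinking enzyme gene Loxl2 by 2.11 ± 0.13. The 3 that fell with the 75th percentile were Col5a2, by 1.99 ± 0.30, Vcan, by 0.96 ± 0.17, and Fn1, fibronectin, by 0.47 ± 0.07. The direction was uncertain for 2 of these: another probe for Vcan rose by 6.16, so the mean of its probes rose by 2.60, and Fn1 was at 0.55 with quantile normalisation and 0.44 with spike-in scaling. Of 16 matrix proteases and inhibitors, Timp1 and Mmp12 among them, 14 rose and Mmp19 fell, by 1.55 ± 0.12, and each of these calls held under all 5 scalings.

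Markers of stellate cells, the collagen-making cells of liver, rose in part. Of 17 markers, 10 rose, all under all 5 scalings, and 1 fell, and the median was 0.87. Cygb, Pdgfra and Vim, which quiescent or activated stellate cells express, rose by 3.17 ± 0.20, 2.52 ± 0.16 and 2.42 ± 0.15. Acta2, the actin of myofibroblasts, had 1746, 930, 974 and 1356 units in deficient livers and 697, 263, 571 and 372 units in controls, a rise of 1.45 ± 0.33. It was not joined by Tagln (-0.19), Myl9 (0.05), Cnn1 (-0.98) or Tpm2 (-0.17) of the same list, none of which passed the test. Ecm1 fell by 1.39 ± 0.20. The summed signal of the 18 markers measured was 36630 to 43830 units in deficient livers and 33750 to 38020 units in controls, and Gfap was undetected on all arrays. Of 19 TGF-beta pathway genes, 13 rose, all under all 5 scalings, and 2 fell, neither under all 5. Tgfb1, the ligand that drives scarring, rose by 1.80 ± 0.11 and its receptor Tgfbr2 by 2.19 ± 0.14.

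All 20 macrophage and monocyte markers rose in their representative probes, under all 5 scalings, with a median of 3.94, although another probe went the opposite way for Itgam (-1.25) and Csf1r (-0.17). The summed signal of the macrophage markers was 54320 to 60520 units in deficient livers and 12280 to 14250 units in controls. Adgre1, which encodes the mouse macrophage antigen F4/80, was at 1505, 1743, 1405 and 1449 units in deficient livers and 208, 161, 142 and 161 units in controls, a rise of 3.19 ± 0.13. Cd68, a lysosomal glycoprotein of phagocytes, rose by 4.15 ± 0.09 and the signalling adaptor gene Tyrobp by 4.00 ± 0.11. Of 15 genes that mark lipid-associated macrophages, 14 rose, under all 5 scalings, with Trem2 and Gpnmb at their head. Markers of Kupffer cells, the resident macrophages, rose in 6 of 10 cases, and their summed signal was 13530 to 27700 units in deficient livers and 7967 to 9292 units in controls, with Cd163 below background on all arrays. Clec4e, detected on no control array, was at least 1.96-fold higher, Spic rose by 1.89 ± 0.20 and Clec1b by 1.33 ± 0.16. Clec4f, the marker most specific to resident cells, ranged from 848 to 3601 units in deficient livers and from 1645 to 2006 units in controls, and the groups overlapped (-0.10 ± 0.42, adjusted p = 0.828). Lysosomal genes stayed near the median of all genes, with 6 rises and 10 falls among 23, and 6 and 0 under all 5 scalings. Ctss, a protease of antigen-presenting cells, rose by 4.46 ± 0.14 and Hexa by 0.90 ± 0.10, while Gaa fell by 1.16 ± 0.09 and was not called with spike-in scaling.

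Chemokine and cytokine genes showed 17 rises and 5 falls among 23, and 16 and 1 under all 5 scalings. Ccl2, which recruits monocytes, had 2869, 2240, 2645 and 2431 units in deficient livers and 58.4, 31.9, 43.8 and 294 units in controls, a rise of 5.18 ± 0.61. The chemokine gene Ccl3 was detected on no control array and was at least 8.11-fold higher. Cxcl14 rose by 4.24 ± 0.21, and Cxcl12, the chemokine that stromal cells and hepatocytes make at rest, fell by 1.81 ± 0.09. Another probe for Cxcl12 was at -0.42. All 8 genes of MHC class II presentation rose, under all 5 scalings, with a median of 3.72. Cd74, the invariant chain, had 10230, 9870, 6889 and 10000 units in deficient livers and 787, 593, 908 and 822 units in controls, a rise of 3.57 ± 0.17, and H2-Ab1 and H2-DMa rose by 3.73 ± 0.19 and 3.71 ± 0.16. Among MHC class I genes the picture was mixed: of 15, 2 rose and 6 fell, and 2 and 0 did so under all 5 scalings. H2-D1 rose by 0.62 ± 0.08 and Psme1, a proteasome activator, fell by 1.02 ± 0.08. B2m, the light chain of class I, fell by 0.54 ± 0.10 with the 75th percentile but was at 0.35 with quantile normalisation and 0.37 with spike-in scaling.

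Lymphocyte markers changed in both directions. Of 14 T and NK cell markers 8 rose and 4 fell, and 7 and 2 did so under all 5 scalings. Cd3g had 72.6, 76.6, 36.6 and 464 units in deficient livers and 7.15, 5.12, 15.9 and 9.80 units in controls, where 1 array detected it (3.50 ± 0.73), and Il7r, detected on no control array, was at least 10.9-fold higher. Cd8a, also undetected in controls, was at least 1.72-fold higher. By contrast Cd3e fell by 1.54 ± 0.26 and Cd4 by 1.65 ± 0.22, with Cd4 at 2485 to 4815 units in deficient livers and 8491 to 12930 units in controls. The summed signal of the 18 markers measured was 3877 to 7835 units in deficient livers and 10280 to 14980 units in controls, and the NK markers Klrb1c and Ncr1 were below background on all arrays. Cd4 supplied much of these sums, so they largely follow that gene and not the markers as a set. Another probe went the opposite way for Cd6 (-2.03, against 2.16) and Nkg7 (2.91, against -0.67). Deficient replicate 4 held the highest lymphocyte values: 464 units of Cd3g, 65.7 units of Cd8a against 8.63 to 18.9 units in the other deficient livers, and 765 units of the B cell gene Cd79b against 34.7 to 43.3 units. Without it the log2 change was 2.76 for Cd3g, against 3.50 with it. Cd79b was undetected in controls and at least 6.71-fold higher, and the bounds without deficient replicate 4 were at least 1.13-fold for Cd8a and at least 3.16-fold for Cd79b. Cd22, another B cell gene, fell by 0.89 ± 0.11 but was at 0.02 with spike-in scaling. Among 5 neutrophil markers S100a9 rose, by 2.65 ± 0.44, and 4 fell, among them Camp, an antimicrobial peptide gene, by 2.12 ± 0.14 and Ly6g by 1.47 ± 0.14. The neutrophil sum was 10460 to 14350 units in deficient livers and 15190 to 19040 units in controls, and the B cell sum was 327.5 to 2010 units against 576.3 to 669.6 units.

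Most interferon-stimulated genes rose. Of 26 tested, 20 rose, all under all 5 scalings, and 3 fell, none under all 5, with a median of 2.56. Oas1a, a sensor of viral RNA, had 21880, 20900, 26910 and 18630 units in deficient livers and 605, 464, 502 and 570 units in controls, a rise of 5.36 ± 0.13, or 41.1-fold. Ifi44 was at 958, 902, 1319 and 719 units in deficient livers and 17.0, 19.2, 15.3 and 21 units in controls, and the GTPase gene Gbp3 rose by 3.55 ± 0.12. Interferon-stimulated promoters are known for the interferon-stimulated response element, searched here as GAAA, any 2 bases and GAAA on both strands in RefSeq promoters (build GRCm38.p6, 250 bases before to 50 after each gene start). It was present in 12 of the 20 interferon list members with a promoter in that table, against 3.99% of all 27025 genes with one. Those 12 include Igtp (-0.53) and Stat2 (-0.39), which fell, and Bst2 and Irgm1, which did not pass the test. The share therefore describes the list and not the genes that rose. The promoters of Oas1a (chr5:120907476-120907775, minus strand) and Gbp3 (chr3:142559794-142560093, plus strand) are shown, since both genes rose in all 4 deficient livers. Each has 2 overlapping matches, in capitals, the more distant starting 20 bases before the gene start in Oas1a and 45 bases before it in Gbp3.
Oas1a: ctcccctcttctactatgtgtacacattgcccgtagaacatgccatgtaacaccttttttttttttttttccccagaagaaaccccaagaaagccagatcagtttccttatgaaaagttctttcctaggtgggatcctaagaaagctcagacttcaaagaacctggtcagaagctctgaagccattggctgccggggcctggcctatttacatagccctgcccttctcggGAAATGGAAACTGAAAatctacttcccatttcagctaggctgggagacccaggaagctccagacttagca
Gbp3: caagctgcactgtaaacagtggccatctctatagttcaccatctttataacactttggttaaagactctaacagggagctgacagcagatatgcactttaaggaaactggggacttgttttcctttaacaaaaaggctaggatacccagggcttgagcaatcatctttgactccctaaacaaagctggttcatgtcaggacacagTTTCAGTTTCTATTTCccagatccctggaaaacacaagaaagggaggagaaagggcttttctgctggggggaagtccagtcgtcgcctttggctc
The match is a description of the letters and shows no binding in these livers.

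Cell division genes formed the list with the highest median. All 21 mitosis genes rose, under all 5 scalings, with a median of 4.20. Mki67, the proliferation antigen, had 1231, 1485, 1197 and 1185 units in deficient livers and 56.8, 68.7, 38.8 and 45.6 units in controls, a rise of 4.63 ± 0.18, or 24.8-fold. Cenpe, the kinetochore motor gene, rose by 4.47 ± 0.18 and the checkpoint kinase gene Bub1, undetected in controls, was at least 3.87-fold higher. The 4 deficient livers differed little for these genes. Mitotic promoters are known for a cell cycle homology element and for CCAAT boxes. TTTGAA was found on either strand in 14 of the 20 mitosis list members with a promoter in the RefSeq table, against 20.2% of all genes, and CCAAT in 18 of 20, against 41.1%. The promoter of Mki67 (chr7:135716330-135716629, minus strand), with TTTGAA in capitals, and that of Cenpe (chr3:135212313-135212612, plus strand), with CCAAT in capitals, stand for the list.
Mki67: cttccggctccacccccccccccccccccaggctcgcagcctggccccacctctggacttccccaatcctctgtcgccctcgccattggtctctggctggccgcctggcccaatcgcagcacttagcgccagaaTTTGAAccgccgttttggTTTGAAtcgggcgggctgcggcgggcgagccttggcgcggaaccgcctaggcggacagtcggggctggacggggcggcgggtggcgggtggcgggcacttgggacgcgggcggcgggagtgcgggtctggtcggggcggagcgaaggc
Cenpe: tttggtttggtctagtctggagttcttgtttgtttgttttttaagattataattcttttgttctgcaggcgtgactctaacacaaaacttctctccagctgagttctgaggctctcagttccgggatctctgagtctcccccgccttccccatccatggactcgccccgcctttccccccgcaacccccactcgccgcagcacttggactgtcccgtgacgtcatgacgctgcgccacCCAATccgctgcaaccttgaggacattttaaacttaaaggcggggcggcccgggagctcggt
The matches begin 116 and 98 bases before the gene start in Mki67 and 12 bases before it in Cenpe.

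DNA replication genes followed, with 17 rises and 2 falls among 22, each under all 5 scalings. Gins2, Mcm6 and Mcm5, parts of the replicative helicase, rose by 3.15 ± 0.20, 2.82 ± 0.11 and 2.43 ± 0.09. The 2 that fell were Mcm10, another replication factor, at 1037 to 2773 units in deficient livers and 12880 to 28180 units in controls (-3.91 ± 0.36), and Tk1, thymidine kinase, at -2.10 ± 0.11. A further probe for Tk1 also fell, at -2.26. Of 13 genes of G1 control, 8 rose, all under all 5 scalings, and 2 fell, neither under all 5. Ccnd1, cyclin D1, had 4890, 3561, 3914 and 3421 units in deficient livers and 497, 461, 580 and 514 units in controls, a rise of 2.93 ± 0.13. Inhibitors of the cycle rose as well: Cdkn2b by 2.88 ± 0.27, detected on 2 control arrays, the pocket protein gene Rbl1 by 2.25 ± 0.13, and Cdkn1a, or p21, by 1.32 ± 0.40, with 1603 to 2316 units in deficient livers and 415 to 1505 units in controls. Of 20 p53 target genes, 14 rose, under all 5 scalings, and 4 fell, none under all 5. Pmaip1, Phlda3 and the death receptor gene Tnfrsf10b rose by 3.92 ± 0.21, 3.85 ± 0.14 and 3.77 ± 0.20, with 1 control array detected for Pmaip1 and 3 for Tnfrsf10b.

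All 15 oncofetal and tumour-associated genes rose, under all 5 scalings, with a median of 4.04. These members were chosen with earlier results of these data known, so the count and the median are not independent support. Besides Ly6d, H19, Ubd, Spink1 and Rad51b, the growth factor gene Nrg1 rose by 7.12 ± 0.19, with 1647 to 2167 units in deficient livers and 10.5 to 17.2 units in controls, where 1 array detected it. Afp, alpha-fetoprotein, had 7582, 2503, 4239 and 2600 units in deficient livers and 207, 262, 226 and 235 units in controls, a rise of 4.04 ± 0.33, and the Golgi protein gene Golm1 rose by 3.35 ± 0.10. Markers of bile ducts and progenitor cells showed 11 rises among 13, under all 5 scalings, and no fall. Krt19, a duct keratin, had 534, 337, 157 and 411 units in deficient livers and 64.0, 30.0, 131 and 72.5 units in controls, a rise of 2.33 ± 0.50, with deficient replicate 3 close to the highest control. Cd24a, Epcam and Sox4 rose by 3.57 ± 0.33, 3.36 ± 0.42 and 3.26 ± 0.17. The summed signal of the 16 duct markers measured was 3288 to 7385 units in deficient livers and 906.3 to 1388 units in controls. Endothelial markers stayed near the median of all genes, with 4 rises and 7 falls among 17, and 4 and 0 under all 5 scalings. Lyve1 rose by 0.98 ± 0.35, a call lost when any of 5 arrays was left out, and Kdr fell by 0.51 ± 0.09 but was at 0.40 with spike-in scaling. The endothelial sum was 13180 to 18440 units in deficient livers and 18380 to 20750 units in controls.

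**Figure D4:**
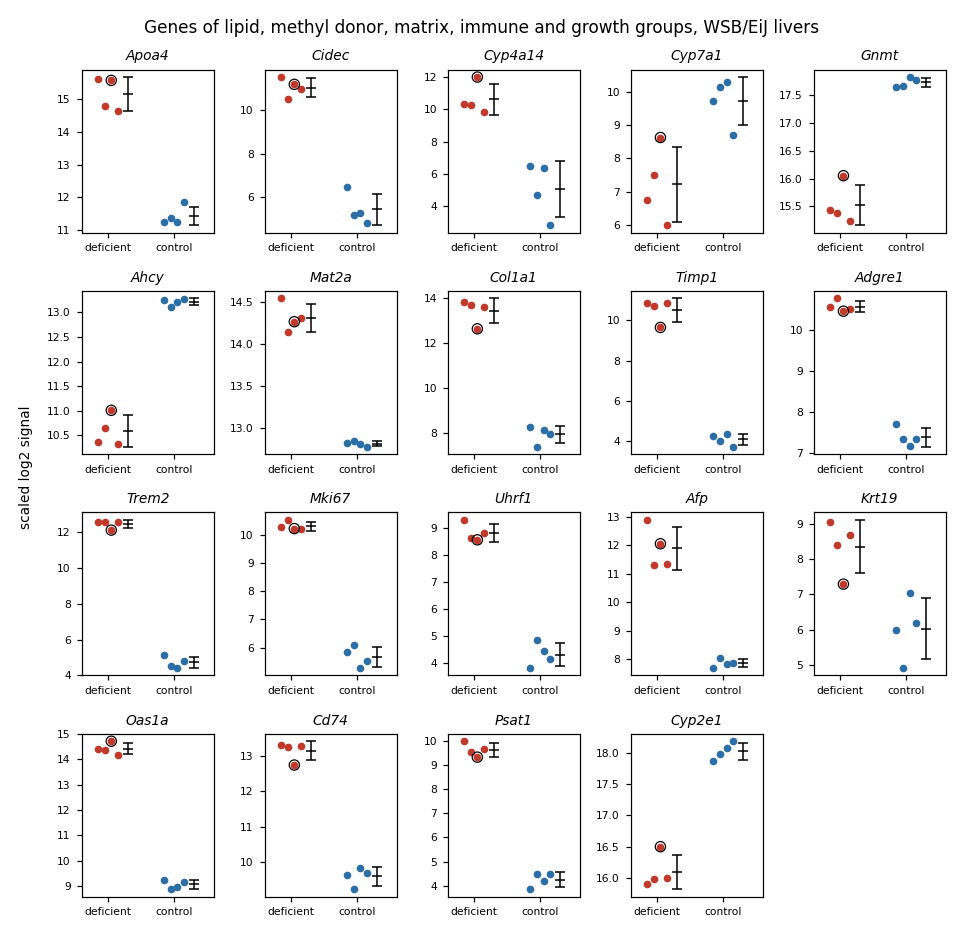
Scaled log2 signal of 19 genes of the groups described, 1 panel per gene, with deficient livers at the left and controls at the right (points: arrays; bar: mean ± SD, n = 4; ringed point: deficient replicate 3). The groups are separate in every panel, with the narrowest gaps for Krt19 and Cyp7a1.

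Stress genes divided by pathway. Of 16 ATF4 targets, which respond to amino acid shortage, 11 rose, under all 5 scalings, and 2 fell, neither under all 5. Atf3 rose by 5.69 ± 0.28, Psat1, an enzyme of serine synthesis detected on 3 control arrays, by 5.37 ± 0.19 and Nupr1 by 4.82 ± 0.31. Asns, asparagine synthetase, is a classical member but changed by 0.53 ± 0.29 (adjusted p = 0.121), with 2526 to 3862 units in deficient livers and 1365 to 3123 units in controls. Its result depended on the scaling, with 0.96 after quantile normalisation and 1.44 with spike-in scaling (limma, adjusted p = 0.000695). All 15 endoplasmic reticulum chaperones fell with the 75th percentile, with a median of -0.89, but only Hyou1, by 1.47 ± 0.11, fell under all 5 scalings, and with spike-in scaling 4 rose and 1 fell. Oxidative stress and glutathione genes showed 7 rises and 16 falls among 27, and 7 and 8 under all 5 scalings. The latter are 25.9% and 29.6%, against 24.7% and 8.72% of all genes tested. Gpx3 and Hmox1 rose by 2.89 ± 0.19 and 1.85 ± 0.20, and Gstp1 fell by 2.36 ± 0.11. Nqo1, a target of the antioxidant factor NRF2, fell by 0.44 ± 0.12 and was at 0.47 with spike-in scaling.

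The direction of ribosomal genes, and the calls of respiratory chain genes, depended on the scaling. All 30 respiratory chain subunits fell with the 75th percentile, with a median of -1.04, and 3 of them fell under all 5 scalings, among them Ndufb3 and Ndufb5, by 1.26 ± 0.09 and 1.20 ± 0.08. Of 30 ribosomal proteins, 29 fell with the 75th percentile, with a median of -0.46, yet 26 rose and none fell with quantile normalisation and again with spike-in scaling. Rpl7 was at -0.61 ± 0.07, against 0.28 with quantile normalisation and 0.30 with spike-in scaling, and Rps2 fell by 0.96 ± 0.08. Clock genes showed no rise and 11 falls among 16, 4 of them under all 5 scalings. Tef and Hlf, clock-driven output factors, fell by 2.28 ± 0.11 and 2.14 ± 0.18, whereas Dbp, an output factor of the same family (-0.15 ± 0.20, adjusted p = 0.524), and the core gene Per2 (0.09 ± 0.22, adjusted p = 0.715) did not pass the test. Arntl fell by 0.74 ± 0.08 but was at 0.17 with spike-in scaling. Of 19 genes of iron handling, 2 rose and 10 fell, and 2 and 1 did so under all 5 scalings. The share that fell is near the 51.8% of all genes tested, and under all 5 scalings it was 5.26%, against 8.72%. Id1 and Bmp6, which report and drive iron signalling, rose by 2.89 ± 0.20 and 1.06 ± 0.24, and Tfr2 fell by 1.57 ± 0.10. Hamp, the iron hormone, was at 5728 to 22050 units in deficient livers and 1251 to 10420 units in controls (1.10 ± 0.69, adjusted p = 0.176), and Tfrc, the transferrin receptor, changed by 0.14 ± 0.23 (adjusted p = 0.604). Retinoid genes showed 5 rises and 6 falls among 15, and 5 and 2 under all 5 scalings. The latter are 33.3% and 13.3%, against 24.7% and 8.72% of all genes tested. Rarb rose by 1.18 ± 0.09, and Aldh1a1 and Dhrs3 fell by 1.42 ± 0.12 and 1.37 ± 0.09.

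Markers of neighbouring tissues were low and uneven. Pancreatic enzymes were highest in deficient replicate 4, with 2433 units of Try4 against 18.2 to 166 units in the other deficient livers and 3.20 to 38.2 units in controls. Cpa1 was at 2009 units and Prss2 at 649 units in that liver, against 21 to 115 units and 13.8 to 42.3 units in the other deficient livers, and neither was detected in controls. They are the 3 of 7 pancreas markers that rose, none under all 5 scalings, and without deficient replicate 4 the log2 change of Try4 was 3.15, against 4.44 with it. Cpa1 and Prss2 were at least 10.6-fold and 5.65-fold higher, and at least 4.11-fold and 2.57-fold higher without deficient replicate 4. The summed pancreas signal was 353.8 to 11050 units in deficient livers and 590.6 to 711.2 units in controls. Wt1, a mesothelial and stromal gene, rose by 3.46 ± 0.50, with 3 control arrays detected, among 3 mesothelial markers tested, and the mesothelial sum was 321.7 to 672.3 units against 74.29 to 309.5 units. Erythroid markers fell in 5 of 5 cases, none under all 5 scalings, with a sum of 49020 to 83930 units against 118300 to 156700 units. The adipose sum was 49.07 to 307.3 units in deficient livers and 56.51 to 87.08 units in controls. The part of these cells and tissues in the results was not tested.

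The diet effect of WSB/EiJ was set against those of the other strains by fitting the difference of effects, which shares no sample between strains. It differed from that of A/J for 8357 of 15399 genes, 54.3%, being higher in WSB/EiJ for 2708, or 17.6%, and lower for 5649, or 36.7%. It differed from that of C3H/HeJ for 3436 of 15417 genes, 22.3%, with 1391 higher (9.02%) and 2045 lower (13.3%). These splits moved with the scaling in the same way as the effect itself: with spike-in scaling 4753 differences were higher and 1178 lower against A/J, and 1911 and 511 against C3H/HeJ. The 24 genes that differed most gave 32 differences, which kept their sign and stayed called at an adjusted p under 0.05 under all 5 scalings and the other alternative fits. With all arrays required above background only 30 could be tested, and at an adjusted p under 0.01 the difference of Ly6d from A/J was not called (adjusted p = 0.0117).

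Several of the largest positive differences were in interferon-inducible genes. Ifi44 rose by 5.72 in WSB/EiJ, 1.31 in A/J and 1.6 in C3H/HeJ, a difference of 4.42 from A/J and 4.12 from C3H/HeJ. Oas1a and Oas1f rose by 5.36 each in WSB/EiJ, against 1.14 and 1.16 in A/J and 1.00 and 1.22 in C3H/HeJ. Ifi27l2b rose by 8.62 in WSB/EiJ, 3.61 in A/J and 4.51 in C3H/HeJ. Of the 26 interferon genes, 19 rose more in WSB/EiJ than in A/J and 16 more than in C3H/HeJ, with 0 and 3 differences in the other direction. Ly6a, the surface protein Sca-1 that interferon is known to induce, was at 1980, 1511, 1517 and 1290 units in deficient WSB/EiJ livers and 43.1, 31.8, 50.9 and 23.6 units in their controls, a rise of 5.44. It fell in A/J, with a log2 change of -3.16 (adjusted p = 0.0225, limma), and did not pass the test in C3H/HeJ, at -0.57 (adjusted p = 0.317).

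The other largest positive differences were of mixed function. The prohormone-cutting enzyme gene Cpe rose by 4.64 in WSB/EiJ against 0.14 in A/J and 0.17 in C3H/HeJ, and the kappa-casein gene Csn3 by 4.38 against -0.51 in A/J. Sftpd, surfactant protein D, rose by 4.56 against 0.09 in A/J, and the sodium pump modulator gene Fxyd6 by 4.06 against -0.23 in A/J. Cyp39a1 rose by 4.14 against -0.07 in C3H/HeJ, and 1500009C09Rik by 3.97 against -0.34 in C3H/HeJ. Ly6d rose by 9.80 in WSB/EiJ and by 5.22 in A/J, a difference of 4.58, but by 9.25 in C3H/HeJ, where the difference was not called (adjusted p = 0.37).

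The Cyp2c genes were among the largest negative differences. Cyp2c54 fell by 7.80 in WSB/EiJ, against changes of -1.32 in A/J and -1.89 in C3H/HeJ, and Cyp2c50 by 7.74 against -1.31 and -1.73. Cyp2c37 was at -7.44 in WSB/EiJ, against -0.53 in A/J and -1.66 in C3H/HeJ, and Cyp2c38 at -7.57 against -2.39 and -3.60. Nuggc was at -7.64 in WSB/EiJ against 0.32 in A/J and -0.75 in C3H/HeJ, and both differences passed the test. Pax2 was at -7.21 against -1.25 in A/J, Gm3734 at -5.20 against 0.22 and AW549542 at -3.43 against 1.63. Against C3H/HeJ the largest negative differences also took in Elovl3 (-7.50 against -2.94), Cyp2b10 (-4.60 against 1.07), the homeobox gene Irx1 (-4.34 against 0.56) and the class I-like H2-Q1 (-0.73 against 3.90).

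**Figure D5:**
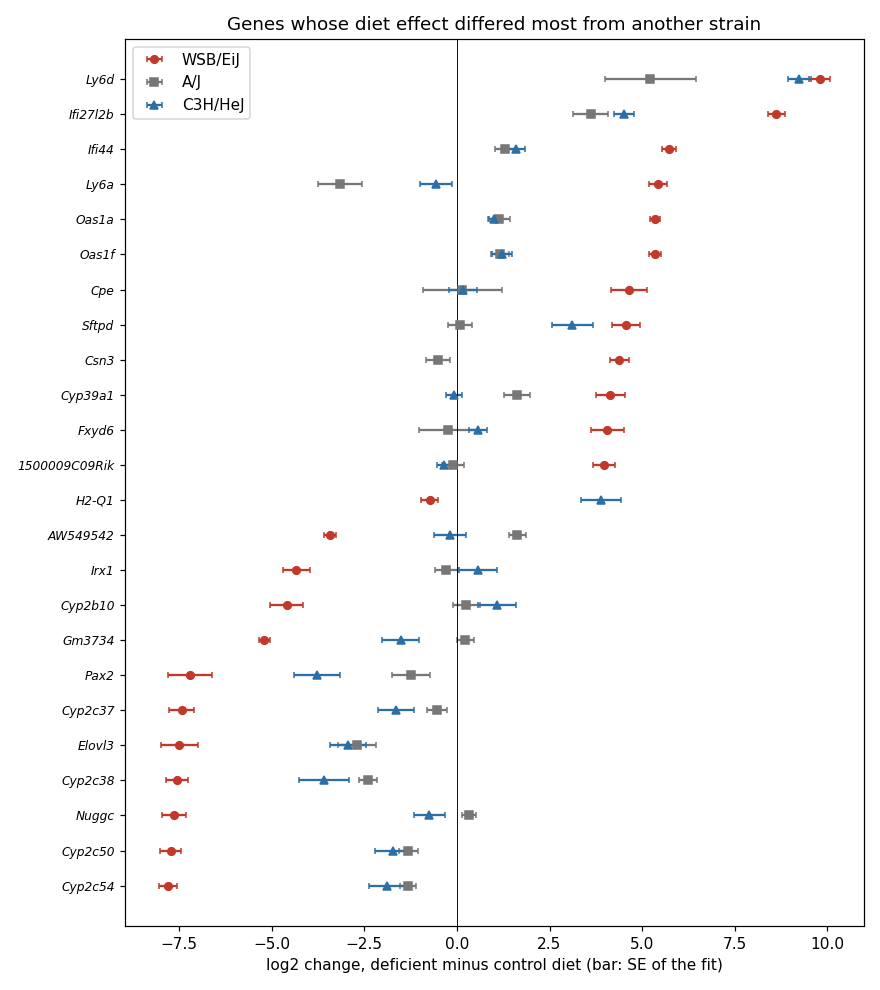
Log2 change on the deficient diet in WSB/EiJ (red circles), A/J (grey squares) and C3H/HeJ (blue triangles) livers, with the SE of each fit, for the 24 genes whose effect in WSB/EiJ differed most from another strain. A symbol is left out where the gene did not pass the background filter in that strain. The red points lie furthest from 0 in each row except that of H2-Q1, which is at 3.90 in C3H/HeJ.

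By list, the effects of WSB/EiJ and A/J differed most in cell division genes. All 21 mitosis genes rose more in WSB/EiJ than in A/J and 17 more than in C3H/HeJ, with median differences of 3.45 and 1.53. Of the 20 macrophage markers, 18 and 13 rose more, and of the 29 matrix genes, 25 rose more than in A/J but 6 more than in C3H/HeJ. MHC class II genes rose more than in A/J in 8 of 8 cases, whereas none of the 8 differed from C3H/HeJ at this threshold. Of the 26 cytochromes, 22 were lower than in A/J and 18 lower than in C3H/HeJ. Of the 19 droplet and PPAR-gamma genes, 5 were higher and 7 lower than in A/J, and 3 and 7 than in C3H/HeJ. Over all genes tested, 17.6% were higher and 36.7% lower than in A/J, and 9.02% and 13.3% than in C3H/HeJ. The share of droplet genes lower than in A/J is thus near that of all genes. Apoa4 rose by 3.74 in WSB/EiJ and 3.63 in A/J (adjusted p of the difference = 0.81), Cd36 by 2.59 and 2.45 (adjusted p = 0.75) and Vnn1 by 3.65 and 4.06 (adjusted p = 0.45), and these tests do not show that the effects are equal. Against C3H/HeJ, where Apoa4 rose by 2.36, the difference of 1.38 passed the test (adjusted p = 0.0154), while Cd36 (-0.43, adjusted p = 0.379) and Vnn1 (-0.62, adjusted p = 0.321) did not. Mogat1 was lower in WSB/EiJ, at 0.50 against 2.92 in A/J and 6.09 in C3H/HeJ, and both differences passed the test. Its probe was not well above background on at least 3 arrays of every group compared, so the sizes of these differences are uncertain.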

How the data were processed

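Total RNA of whole livers was labelled with Cy3 and hybridised to 1-colour Agilent arrays, 1 array per sample. The deposited values are spot intensities from Agilent Feature Extraction 10.7, background-subtracted and detrended within each array and not scaled between arrays, per the file headers. The authors' deposited table of normalised intensities was used as an alternative. On each array its values are the spot signals multiplied by a constant of that array. Apart from a factor common to all arrays, these constants are close to those of the percentile scaling used here. Results from that table therefore do not test the scaling. Probes were named through RefSeq accessions and symbols, and 22747 of 55681 probes had no name.

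The processed signal was divided by the 75th percentile of its array and taken to log2, control spots and outlier spots being left out. The probe with the highest mean signal over the series stood for its gene, which was tested where all 4 arrays of either diet were well above background for that probe. The 8 WSB/EiJ arrays were fitted with limma 3.58.1 in R 4.3.3, and differences between strains in a fit of 16 arrays, with Benjamini-Hochberg adjustment at 0.05. Where a gene was below background on every array of the lower group, only a bound of the fold is given. The script was tested on simulated data.

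Genes were named as the 15 largest changes in each direction, the 8 largest bounds, up to 3 called members per list and direction by adjusted p, the 8 largest differences per strain and direction, and a fixed panel. Some genes that this rule takes are not reported here. The members of the lists, the panel and the comparison were chosen with earlier results of these data known, so their directions are not independent support. The call under all 5 scalings and the bounds without deficient replicate 4 were added after seeing the data. Replicate numbers did not pair the samples (r = 0.01, -0.032, -0.178 and -0.082 for the same-numbered arrays). The arrays lay on 3 slides, each holding both diets, and 11455 of the 11585 called genes (98.9%) had the same direction within each slide. Alternatives covered the scaling, background correction, filters, choice of probe, slide, replicate block and single arrays left out. The number of arrays limits the precision.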

Additional observations from a re-analysis of the deposited data

Results flagged for a closer look

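In 32 of 458 groups of 4 arrays tested (6.99%), 1 array lay apart from the other 3 by Dixon's test at the 95% level. Chance flags about 1 group in 20. Deficient replicate 3 accounted for 16 of the 32, the others for 0 to 6 each. For 11 genes that were higher on the deficient diet it was the lowest of the deficient livers: Fgf21 (2550 units, against 5740 to 6010 in the other 3), Timp1 (805 against 1660 to 1850), Trem2 (4480 against 6050 to 6260), Cd24a (163 against 430 to 484), Cpe (1310 against 2980 to 3450), Sftpd (541 against 1570 to 1880), Cd74 (6890 against 9870 to 10200), H2-Ab1 (14400 against 21900 to 22700), H2-DMa (207 against 280 to 294), Cdkn2b (66.2 against 103 to 106) and Pparg (390 against 466 to 480). Cxcl14 was similar (874 against 978 to 1000). For 4 genes that were lower on the diet it was the highest: Cyp2c50 (530 against 194 to 223), Cyp2e1 (92500 against 60800 to 65100), Acaa2 (69400 against 55200 to 57200) and Aldh1a1 (75500 against 53600 to 56700). In each of these 16 genes the replicate thus lay on the side of the controls.

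The other deficient arrays that stood apart were replicate 4 for Cd79b (765 against 34.7 to 43.3 units) and replicate 2 for Gbp3 (574 against 500 to 512) and Mki67 (1480 against 1190 to 1230). Among controls, replicate 1 stood apart for Ppp1r3g (707 against 25.5 to 29), Cib3 (70.5 against 144 to 155) and Ubd (5.94 against 20.6 to 24.1), and replicate 2 for Cygb (728 against 960 to 1010). Control replicate 3 did so for Dbp (482 against 274 to 299), Dgat2 (82400 against 68200 to 69600), Kdr (961 against 890 to 894), Nnmt (7320 against 6510 to 6580), Slc13a2 (5680 against 3080 to 3390) and Slco1a1 (9100 against 9990 to 10000). Control replicate 4 did so for Gins2 (20.8 against 29.6 to 31.4), S100a9 (194 against 52.7 to 59) and Tm7sf2 (18300 against 27200 to 29200).

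The diet effect differed between strains by the test of the difference for the genes below, the values being the effect in WSB/EiJ minus that in the other strain on the log2 scale. Against A/J the positive differences were 8.60 for Ly6a, 5.02 for Ifi27l2b, 4.89 for Csn3, 4.58 for Ly6d, 4.50 for Cpe, 4.47 for Sftpd, 4.42 for Ifi44 and 4.29 for Fxyd6. The negative ones were -7.96 for Nuggc, -6.90 for Cyp2c37, -6.49 for Cyp2c54, -6.42 for Cyp2c50, -5.96 for Pax2, -5.42 for Gm3734, -5.17 for Cyp2c38 and -5.06 for AW549542. Against C3H/HeJ the positive differences were 6.01 for Ly6a, 4.73 for Csn3, 4.47 for Cpe, 4.36 for Oas1a, 4.31 for 1500009C09Rik, 4.22 for Cyp39a1, 4.14 for Oas1f and 4.12 for Ifi44. The negative ones were -6.89 for Nuggc, -6.01 for Cyp2c50, -5.91 for Cyp2c54, -5.78 for Cyp2c37, -5.67 for Cyp2b10, -4.90 for Irx1, -4.63 for H2-Q1 and -4.56 for Elovl3.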

How the results depend on the processing

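The count of genes lower on the deficient diet depended most on the scaling. In WSB/EiJ it was 5191 with quantile normalisation, 5160 with normexp and quantile normalisation, 1315 with spike-in scaling (9557 higher) and 1312 where all 5 scalings were required. It was 12678 with no background filter and 11972 with unnamed probes. At 2-fold or more, 4933 genes were called, 2455 higher and 2478 lower. Leaving out 1 array gave 10952 to 11667 calls, 3581 to 3787 higher and 7336 to 7880 lower. For the difference from A/J, lower calls numbered 3300 with quantile normalisation, 3261 with normexp, 1178 with spike-in scaling (4753 higher), higher calls 1754 where all arrays had to be above background, and 3539 genes differed at 2-fold or more (1661 lower). Leaving out 1 array gave 7537 to 8775, 2483 to 2785 higher and 5049 to 5990 lower. For the difference from C3H/HeJ, lower calls numbered 1246 with quantile normalisation, 888 with median centring, 511 with spike-in scaling, 1101 with normexp, 1296 with no filter and 3213 with array weights. There were 1413 calls at an adjusted p under 0.01 (692 higher, 721 lower) and 1708 at 2-fold or more (743 lower). Leaving out 1 array gave 2483 to 4362, 1092 to 1629 higher and 1357 to 2733 lower, with 2045 lower over all arrays. The lowest came without C3H/HeJ deficient replicate 3. The cause of these shifts was not tested.

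Among 229 genes named, the sign turned with quantile normalisation for Alb (0.06), B2m (0.346), Chka (0.443), Fn1 (0.554), Pemt (0.036) and Rpl7 (0.281), and with normexp and quantile normalisation for Alb (0.033), B2m (0.339), Chka (0.388), Fn1 (0.471), Pemt (0.062) and Rpl7 (0.253). With spike-in scaling it turned for Apob (0.002), Arntl (0.166), B2m (0.374), Cd22 (0.02), Chka (0.837), Dbp (0.763), Dnmt3b (0.693), Fasn (0.638), Fn1 (0.435), H2-Q1 (0.179), Kdr (0.397), Nqo1 (0.466), Pemt (0.211), Rpl7 (0.296) and Srebf1 (0.164). The mean of all probes turned Vcan (2.598), and Ppp1r3g was at -1.063 within slide 3. Without 1 array or another, the calls of Lyve1, Ppp1r3g, Srebf1 and Try4 were lost, and Saa1 and Dnmt3b were called. With the replicate block, 10924 genes were called in WSB/EiJ, 7944 differed from A/J and 3114 from C3H/HeJ, and with the slide as a block 11452 were called in WSB/EiJ.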

Other observations

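Probes that could not be named leaned further downward than named genes. Of 6751 such probes tested, 788 were higher on the deficient diet (11.7%) and 4236 lower (62.8%), with a median of -0.56 against -0.32 for named genes, and 422 and 1609 of these calls were at least 2-fold. Among 947 genes of the lists and of the text, 246 had a further probe above background, and for 31 of these at least 1 probe went the opposite way, 20 of them genes that were called. Probes of the same sign could also differ in size, as for Ifi27l2b (8.62 and 5.68) and Psat1 (5.37 and 2.85). For Cyp2c54 (-7.8) the further probes were at -7.47 and -3.53.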
